A study of Mus musculus with 4 samples.

Results

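The mitochondrial ribosomal protein genes were taken as all genes whose symbol begins with Mrpl or Mrps followed by a digit. The choice used the name alone and no measured value. It gave 77 of the 16709 gene symbols in the authors' table, 48 of the large subunit (Mrpl) and 29 of the small subunit (Mrps). RefSeq lists 78 protein-coding mouse genes with such a symbol, and the remaining one, Mrpl58, stood in the table under its older symbol Ict1. All 77 listed positions overlapped the GENCODE gene of the same name, and the genes lay on 17 chromosomes.

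The mitochondrial ribosome translates the few messenger RNAs encoded by mitochondrial DNA, which specify core subunits of the respiratory chain and ATP synthase. Its ribosomal RNAs come from the mitochondrial genome, whereas all of its proteins are encoded in the nucleus, made in the cytosol and imported. Some of these proteins have bacterial counterparts, and others are found only in mitochondria. The small subunit holds the decoding centre and the large subunit the peptidyl transferase centre and the exit tunnel, which opens at the inner membrane.

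RNA sequencing was done on 3T3-L1 cells, a clonal preadipocyte subline of 3T3 mouse embryo fibroblasts, grown in medium with fetal bovine serum. The treated group received 25 µM Nutlin-3a for 24 h, a small molecule that blocks the binding of MDM2 to p53, and the control group received an equivalent amount of the vehicle DMSO. The 4 libraries were 2 biological replicates of either group. The authors' table gives 1 FPKM value (fragments scaled to transcript length and to the mapped fragments of a library) per transcript and group, so no value below carries a replicate error and no p-value was computed. In bulk RNA, fewer cells expressing a gene and less RNA per cell cannot be told apart.

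The treatment showed in the p53 target Cdkn1a, listed at 386 against 35.2 FPKM (Nutlin-3a first), while Mdm2 was listed at 0 against 773 FPKM, where the 0 may stand for an estimate that failed. Of the preadipocyte and fibroblast markers, Dlk1 was at 623 against 513 FPKM and Col1a1 at 63.9 against 193 FPKM. Pdgfra (9.14 against 29.99 FPKM), Pdgfrb (15.3 against 26.1 FPKM) and Thy1 (47.9 against 88.6 FPKM) were lower as well, and Zfp423 (2.91 against 1.82 FPKM) was higher. The macrophage marker Cd68 (6.52 against 2.91 FPKM) and the endothelial marker Pecam1 (1.57 against 0.0260 FPKM) were higher, and the part of these differences in the results below was not tested. The adipocyte markers Adipoq, Lep, Plin1 and Cidec and the leukocyte and epithelial markers Ptprc, Epcam and Krt8 were under 1 FPKM in both groups.

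Levels of the 77 genes differed widely from gene to gene, and their order was similar in both groups. In DMSO the 48 large-subunit genes ran from 5.39 FPKM (Mrpl1) over a median of 42.2 to 988 FPKM (Mrpl52). The 29 small-subunit genes ran from 4.85 FPKM (Mrps27) over a median of 71.1 to 532 FPKM (Mrps21). In Nutlin-3a the same genes stood at both ends, with medians of 43.9 FPKM for the large and 58.3 FPKM for the small subunit. The median gene of the large subunit was thus below that of the small subunit in each group. The groups' values of log2(FPKM + 1) had a Pearson r of 0.964 across the 77 genes and 0.945 across 10331 genes, and genes are no independent replicates.

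**Figure D1:**
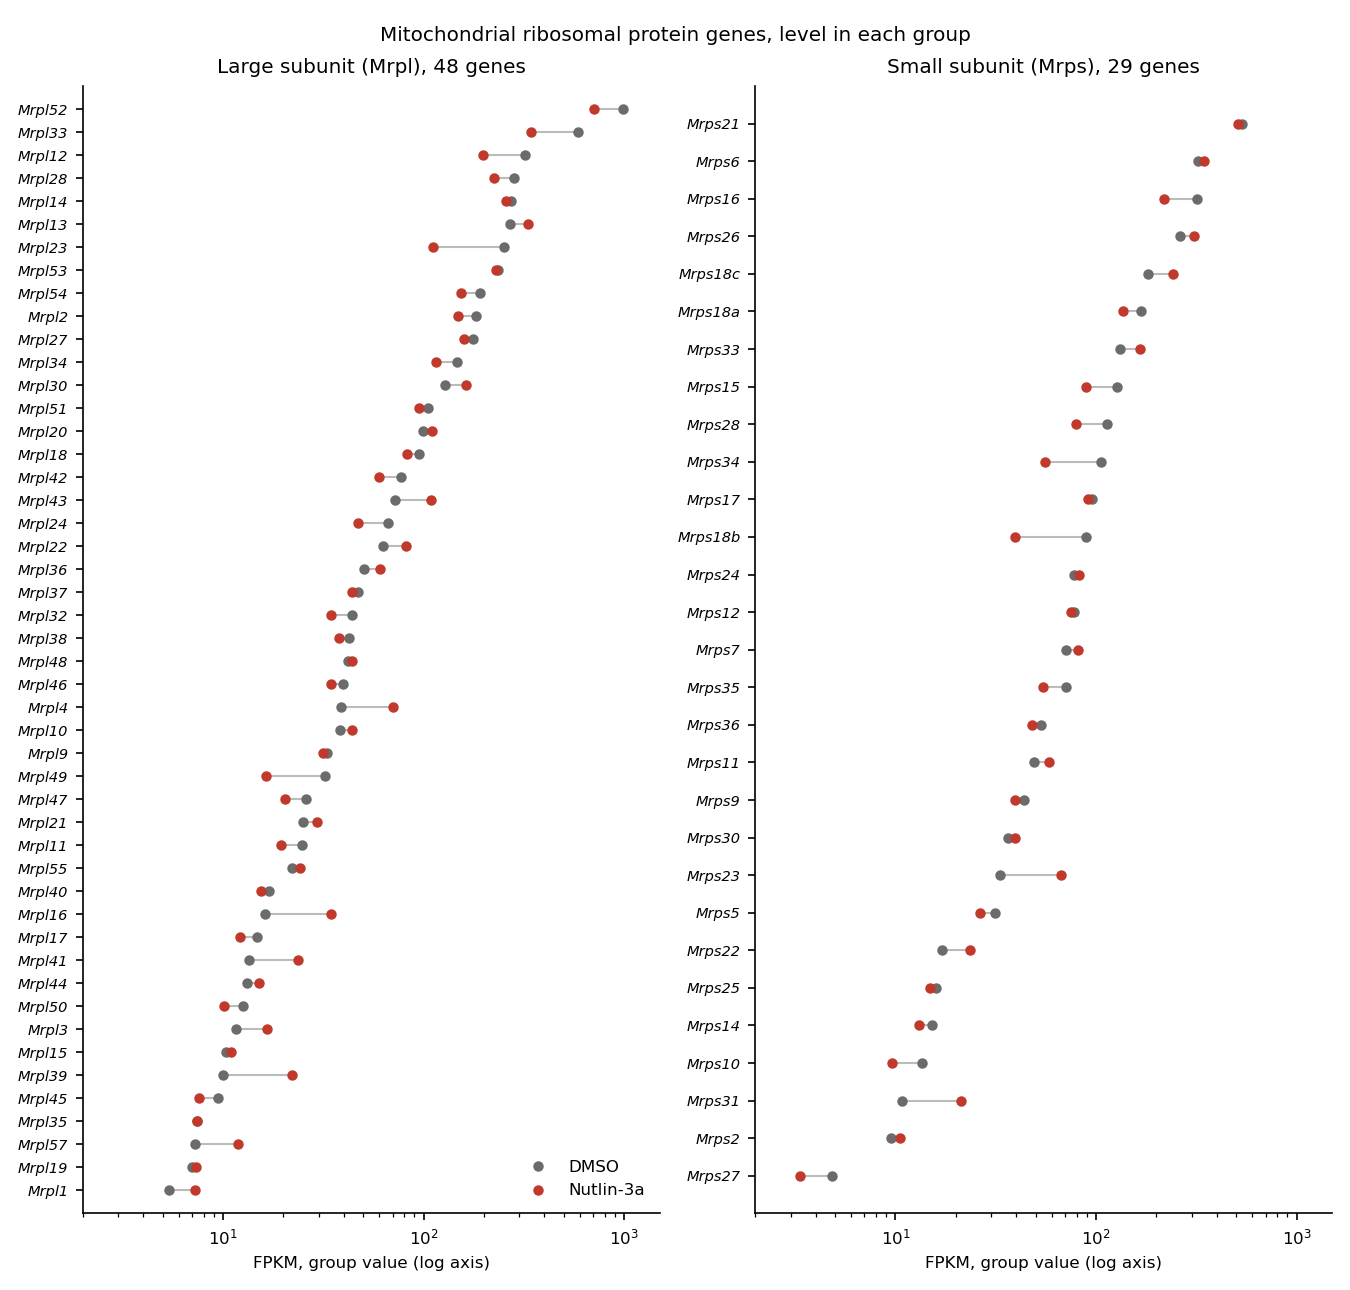
Level of each mitochondrial ribosomal protein gene in DMSO (grey) and Nutlin-3a (red), as the authors' group value in FPKM on a log axis, with genes ordered by DMSO level within the large and the small subunit. A grey line joins the 2 group values of a gene. Most pairs of points lie close together, while Mrpl23 and Mrps18b lie to the left and Mrpl16 and Mrpl39 to the right in Nutlin-3a.

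Among the most abundant large-subunit genes were Mrpl52, a mitochondria-specific protein of the central protuberance (710.1 against 988 FPKM, Nutlin-3a first here and below), and Mrpl33, a small protein with a bacterial counterpart (341 against 588 FPKM). Mrpl13 (332 against 268 FPKM), Mrpl14 (259 against 273 FPKM) and Mrpl12 (198 against 321 FPKM) came next. In the small subunit these were Mrps21 (511 against 532 FPKM), Mrps6 (347 against 324 FPKM), Mrps26 (307 against 261 FPKM), Mrps16 (219 against 319.7 FPKM) and Mrps18c (243 against 182 FPKM). Of the 77 genes, 26 ranked among the 1000 most abundant symbols. All 77 were above 0 in both groups and passed the minimum mean of 1 FPKM for the comparison, so none was left out.

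Most of the family lay close to its DMSO level, and both subunits had similar medians. Ratios are given as log2 of (Nutlin-3a + 1) over (DMSO + 1) in FPKM, and had a median of -0.08 in the large and -0.06 in the small subunit, against 0.07 over the 10331 genes compared. The medians of the subunits differed by -0.03, large minus small, and this small difference turned to 0.017 after quantile normalization. Quartiles were -0.31 and 0.24 in the large and -0.38 and 0.19 in the small subunit. Of the 77 genes, 44 had a ratio below 0 (57.1%), as did 45.2% of all genes compared. By subunit these were 27 of 48 large and 17 of 29 small genes.

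On this scale 2 members reached a 2-fold higher value with Nutlin-3a, as 6.62% of all genes compared did. Another 2 were at least 2-fold lower, as were 6.14% of all genes, and 73 lay within 2-fold. The call is a limit of size on the group values and not a test. With the median ratio of all genes set to 0, no member was higher and 3 were lower, beside 596 and 729 of 10331 genes. After a correction for GC content 1 was higher and 3 were lower, beside 612 and 592 of 9935 genes. After upper-quartile scaling 1 was higher and 2 were lower, beside 629 and 688 of 10329 genes. With a pseudocount of 0.1, with none and after quantile normalization, 3 were higher and 2 were lower. Over all genes these settings gave 998 and 845 of 10331, 1039 and 883 of 10331, and 631 and 714 of 10364. Within 1.25-fold lay 43 members (55.8%), and 42.1% of all genes compared. Of the 7275 genes within the members' own range of mean FPKM, 41.4% lay within 1.25-fold and 87.4% within 2-fold, against 94.8% of the members. These genes are not matched by level, with a DMSO median of 15.0 FPKM against 49.3 FPKM for the members. Within 2-fold also lay 76 of 77 cytosolic ribosomal protein genes compared and 84 of 86 nuclear-encoded oxidative phosphorylation genes.

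**Figure D2:**
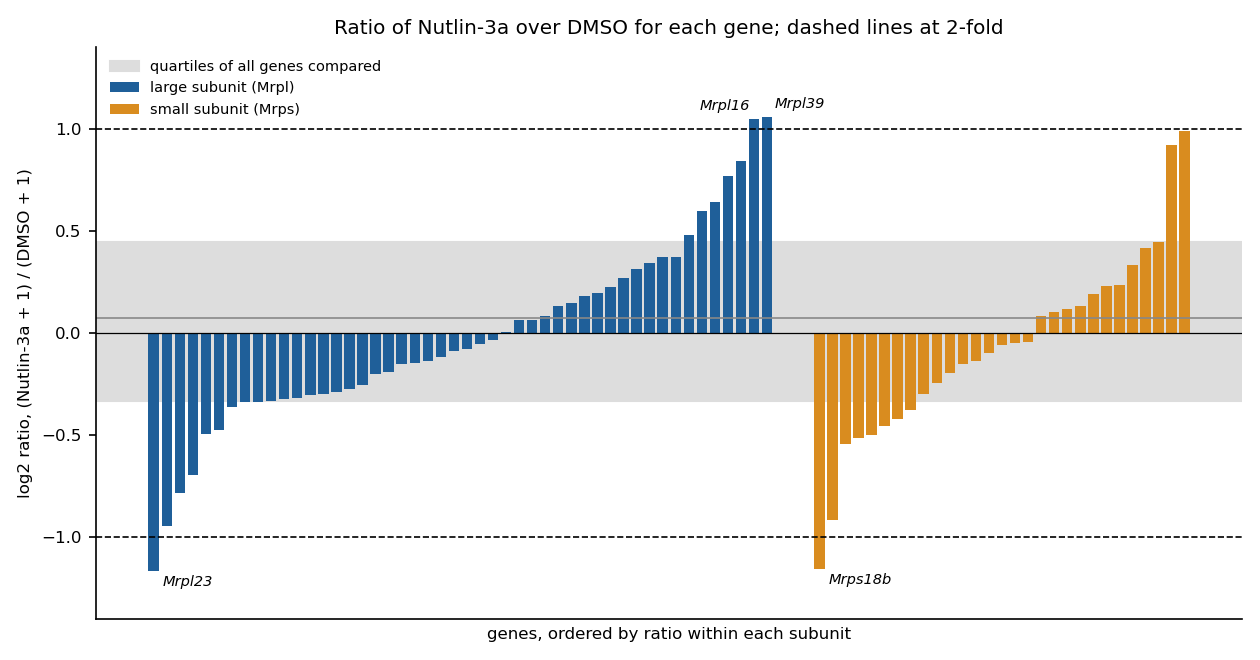
Log2 of (Nutlin-3a + 1) over (DMSO + 1) in FPKM for each of the 48 large-subunit (blue) and 29 small-subunit (orange) genes, ordered within each subunit. The grey band spans the quartiles of all 10331 genes compared and the grey line is their median; dashed lines mark 2-fold. Mrpl23 and Mrps18b pass the lower line and Mrpl16 and Mrpl39 the upper one.

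The large-subunit genes summed to 4444 FPKM after Nutlin-3a treatment and to 5270 FPKM under DMSO, a ratio of 0.843. The small-subunit sums were 2952 and 3081 FPKM, a ratio of 0.958. Of the large-subunit sum, Mrpl52 held 710.1 against 988 FPKM and Mrpl33 held 341 against 588 FPKM. Without Mrpl52 the ratio was 0.872, and leaving out Mrpl33 was not tried. Both subunits together held 0.765% of all listed FPKM after treatment and 0.852% under DMSO. By level, the third of members with the highest mean had a median log2 ratio of -0.15 and 18 of 25 below 0. The third with the lowest mean had a median of 0.07 and 11 of 26 below 0. Across the members, Spearman's rho between mean FPKM and ratio was -0.22, and it was -0.06 after the correction for GC content. By subunit rho was -0.34 in the large and -0.03 in the small, and -0.12 and 0.07 after that correction. Over 9935 genes compared with a GC content it was -0.09, and -0.04 after the correction.

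The 4 genes past the limit were Mrpl23 and Mrps18b, which were lower, and Mrpl16 and Mrpl39, which were higher. Mrpl23, a protein at the rim of the exit tunnel, was listed at 111 FPKM with Nutlin-3a against 251 FPKM with DMSO, 2.25-fold lower (log2 ratio -1.17). Its listed model runs from 142533117 to 142540742 on chromosome 7 (mm10, as are all listed models below). Mrps18b, a small-subunit protein with paralogs Mrps18a and Mrps18c, was listed at 39.5 FPKM with Nutlin-3a against 89.5 FPKM with DMSO, 2.26-fold lower (log2 ratio -1.16), from 35910385 to 35916369 on chromosome 17. With a pseudocount of 0.1, upper-quartile scaling, quantile normalization and the GC correction, the ratio ran from -1.22 to -1.12 in Mrpl23 and from -1.21 to -1.14 in Mrps18b.

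Mrpl16, whose bacterial counterpart lies near the peptidyl transferase centre, was listed at 34.5 FPKM with Nutlin-3a against 16.2 FPKM with DMSO, 2.13-fold higher (log2 ratio 1.05), from 11770415 to 11774946 on chromosome 19. Mrpl39, a mitochondria-specific protein, was listed at 21.98 FPKM with Nutlin-3a against 10.04 FPKM with DMSO, 2.19-fold higher (log2 ratio 1.06), from 84717580 to 84735302 on chromosome 16. Both higher genes lay near the limit. With GC content corrected for, their log2 ratios were 0.94 and 0.86, and upper-quartile scaling put Mrpl16 at 0.999.

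The promoters of these 4 genes, from 250 bases before to 50 after the RefSeq start (GRCm38.p6), are shown because their genes stood farthest from the DMSO level. Capitals mark matches to short cores bound by regulators of nuclear genes for mitochondria. These are GCATGCGC for NRF1, CCGGAAG for ETS factors such as GABP, and ATGGCGGC for YY1, searched on both strands.
Mrpl23 (chr7:142532782-142533081, plus strand): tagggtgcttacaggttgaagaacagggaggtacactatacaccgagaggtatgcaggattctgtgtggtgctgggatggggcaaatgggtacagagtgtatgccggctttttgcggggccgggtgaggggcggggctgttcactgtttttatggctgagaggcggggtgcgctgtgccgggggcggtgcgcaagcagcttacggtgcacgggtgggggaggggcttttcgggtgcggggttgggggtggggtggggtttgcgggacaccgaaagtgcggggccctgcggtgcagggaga
Mrps18b (chr17:35916391-35916690, minus strand): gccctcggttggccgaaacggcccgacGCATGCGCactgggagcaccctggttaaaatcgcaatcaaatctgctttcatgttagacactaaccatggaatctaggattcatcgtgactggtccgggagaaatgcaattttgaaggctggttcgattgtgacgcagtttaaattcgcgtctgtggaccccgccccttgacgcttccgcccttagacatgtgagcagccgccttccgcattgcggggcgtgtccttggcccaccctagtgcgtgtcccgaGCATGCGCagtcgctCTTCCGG
Mrpl16 (chr19:11770165-11770464, plus strand): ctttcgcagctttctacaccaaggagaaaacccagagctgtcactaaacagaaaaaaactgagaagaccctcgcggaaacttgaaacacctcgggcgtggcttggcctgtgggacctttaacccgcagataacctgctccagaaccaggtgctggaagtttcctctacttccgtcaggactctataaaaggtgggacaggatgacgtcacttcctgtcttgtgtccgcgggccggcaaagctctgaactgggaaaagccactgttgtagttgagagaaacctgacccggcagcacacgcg
Mrpl39 (chr16:84735195-84735494, minus strand): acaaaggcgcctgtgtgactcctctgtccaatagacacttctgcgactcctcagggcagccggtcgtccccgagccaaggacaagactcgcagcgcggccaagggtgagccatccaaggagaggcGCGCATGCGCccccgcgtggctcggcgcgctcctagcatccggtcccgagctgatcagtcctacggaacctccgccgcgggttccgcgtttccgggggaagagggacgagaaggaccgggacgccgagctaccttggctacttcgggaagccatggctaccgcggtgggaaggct
The Mrps18b window held 2 NRF1 matches and 1 ETS match, and that of Mrpl39 held NRF1 matches on both strands that overlap each other. No letters of the 3 motifs were in the windows of Mrpl23 and Mrpl16. A gene of each direction thus had NRF1 letters and a gene of each direction had none.

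Several members lay just inside the limit. Mrps23, a mitochondria-specific small-subunit protein, was listed at 66.7 FPKM with Nutlin-3a against 33.1 FPKM with DMSO (log2 ratio 0.99), and passed the limit with a pseudocount of 0.1 (1.01). Its listed model is 15.9 times as long as the reference gene and reaches over Cuedc1, so the value is uncertain. Mrps31, also mitochondria-specific, had 21.2 against 10.7 FPKM (0.92). Mrpl4, which lines the exit tunnel, had 70.3 against 38.8 FPKM (0.84), and a log2 ratio of 1.01 once GC content was corrected for.

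Below DMSO, Mrpl49 had 16.3 against 32.4 FPKM (-0.94, and -1.07 after the correction for GC content). Its model takes in the neighbouring gene Syvn1. Mrps34, a mitochondria-specific small-subunit protein, had 55.9 against 106 FPKM (-0.92). Mrpl33 (341 against 588 FPKM) and Mrpl12 (198 against 321 FPKM) were next, with log2 ratios of -0.78 and -0.70. In both of these abundant genes the Nutlin-3a value was more than 100 FPKM below that of DMSO.

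In the large subunit, the stalk and its base recruit translation factors to the ribosome. All 5 stalk genes lay within 2-fold, as did 87.2% of all genes compared. Of the 5, 4 were below DMSO, beside 45.2% of all genes, and their median log2 ratio was -0.30. Mrpl12 was the lowest of the 5. Its human protein is also known to bind the mitochondrial RNA polymerase. Mrpl11 had 19.5 against 24.6 FPKM (-0.32), Mrpl54 154 against 190.3 FPKM (-0.30) and Mrpl53 229.8 against 235 FPKM (-0.03), while Mrpl10, the base protein, had 43.96 against 38.3 FPKM (0.19).

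The list of proteins at the exit tunnel reached from Mrpl23 at the lower to Mrpl39 at the upper end. Of 7 genes, 1 was higher, 1 lower and 5 within 2-fold, with a median of -0.26. The shares of all genes compared were 6.62%, 6.14% and 87.2%. Mrpl24 was at 46.9 against 66.6 FPKM (-0.50) and Mrpl22 at 81.7 against 63.02 FPKM (0.37). Mrpl45, which faces the inner membrane, was at 7.61 against 9.43 FPKM (-0.28), Mrpl17 at 12.2 against 14.7 FPKM (-0.26), and Mrpl44, which has a ribonuclease III-like fold, at 15.1 against 13.2 FPKM (0.18). The model of Mrpl24 overlaps that of Rrnad1, so part of its value may be shared.

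The central protuberance joins the large subunit to the small one. All 9 listed genes were within 2-fold, as were 87.2% of all genes compared. Of the 9, 7 were below DMSO, beside 45.2% of all genes, and their median was -0.15. Mrpl33 and Mrpl52 (-0.48) were lowest. The others ran from Mrpl18 with 82.4 against 94.95 FPKM (-0.20) to Mrpl48 with 43.9 against 42.03 FPKM (0.06), and Mrpl38, Mrpl46, Mrpl27, Mrpl40 and Mrpl35 lay between them. Mrpl35 was nearly equal in both groups (7.42 against 7.39 FPKM).

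Elsewhere in the large subunit, higher values were listed for Mrpl41 (23.6 against 13.4 FPKM, log2 ratio 0.77), whose human protein has been reported to act together with p53, for Mrpl57 (11.9 against 7.28 FPKM, 0.64) and for Mrpl43 (109 against 71.8 FPKM, 0.60). The listed model of Mrpl41 is 12.9 times as long as the reference gene and overlaps Dph7, so its value is uncertain. Mrpl3 had 16.6 against 11.6 FPKM (0.48) and Mrpl1 7.27 against 5.39 FPKM (0.37). The remaining 17 large-subunit genes ran from -0.36 (Mrpl42) to 0.34 (Mrpl30), with 10 of them below 0, beside 45.2% of all genes compared.

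In the small subunit, proteins of the body, head and platform with bacterial counterparts lay around DMSO. Of 17 genes on this list, which counts Mrps18a by its name, Mrps18b was lower, none was higher, and the median was -0.06. Of all genes compared, 6.14% were lower and 6.62% higher. Mrps12, which sits at the decoding centre, had 75.02 against 77.3 FPKM (-0.04). Lower values were listed for Mrps16 (219 against 319.7 FPKM, -0.54), Mrps15 (89.00 against 127 FPKM, -0.51) and Mrps10 (9.64 against 13.6 FPKM, -0.46). Mrps11 (58.3 against 49.3 FPKM), Mrps7 (81.3 against 71.1 FPKM) and Mrps2 (10.5 against 9.46 FPKM) lay slightly above DMSO. Mrps5, Mrps6, Mrps9, Mrps14, Mrps17, Mrps21 and Mrps24 ran from -0.25 to 0.10.

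The paralogs Mrps18a, Mrps18b and Mrps18c had different ratios. Mrps18a had 136 against 168 FPKM (-0.30), Mrps18b 39.5 against 89.5 FPKM (-1.16) and Mrps18c 243 against 182 FPKM (0.42). In structures of the mammalian ribosome the proteins of Mrps18a and Mrps30 belong to the large subunit despite their names. With both counted there, the medians stayed at -0.08 for the large and -0.06 for the small subunit.

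Mrps symbols numbered as mitochondria-specific lay on both sides of DMSO, with Mrps23 and Mrps31 above it and Mrps34 below it as given before. Mrps22 (23.6 against 17.1 FPKM, 0.44), Mrps33 (166 against 132 FPKM, 0.33) and Mrps26 (307 against 261 FPKM, 0.23) lay above DMSO. Mrps28 (79.7 against 113 FPKM, -0.50), Mrps27, a pentatricopeptide repeat protein (3.36 against 4.85 FPKM, -0.42), and Mrps35 (54.3 against 70.9 FPKM, -0.38) lay below it. Mrps30, Mrps25 and Mrps36 lay between -0.15 and 0.12. Mrps36, with 47.9 against 53.4 FPKM, has since been described as a part of the oxoglutarate dehydrogenase complex.

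Over both subunits, the 32 members numbered as mitochondria-specific had a median of -0.11 and the 45 numbered after bacterial counterparts a median of -0.06. These classes follow the number in the symbol alone and were not checked against protein sequence or structure, so single genes may be misplaced. Within the small subunit the SD of the log2 ratio was 0.57 across 12 genes numbered as specific and 0.37 across 17 other genes. In the large subunit it was 0.47 across 20 genes numbered as specific and 0.47 across 28 other genes. These SDs describe the spread between genes, not between replicates.

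A single transcript was listed for 68 members and several for 9. On the log2(FPKM + 1) scale, no member had one transcript past 2-fold higher and another past 2-fold lower. In Mrps10 one transcript had 1.98 against 7.12 FPKM (log2 ratio -1.45) and the other 7.66 against 6.48 FPKM (0.21). Mrps2 had a transcript listed at 0.00138 against 1.47 FPKM beside its main one with 10.5 against 7.99 FPKM. Among the 5 transcripts of Mrpl55, one had 11.4 against 5.65 FPKM, another 8.25 against 10.9 FPKM and the weakest 0 against 0.421 FPKM. As plain ratios, the transcript at 11.4 FPKM and the weakest lay past 2-fold in opposite directions. All 5 summed to 24.3 against 22.1 FPKM. Of the 5 transcripts of Mrps23, 3 were listed at 0 in DMSO and at up to 2.04 FPKM in Nutlin-3a, while its main one had 58.3 against 31.7 FPKM.

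The listed models of 10 members overlapped that of another symbol, and 7 were over 1.5 times as long as the reference gene. Beside those named above, these included Mrpl53 (Ccdc142), Mrpl19 (Gcfc2), Mrpl48 (Rab6a), Mrps25 (Nr2c2), Mrps27 and Mrps6 (Slc5a3). Without the 10 genes the medians were -0.10 for the large and -0.06 for the small subunit, and the 4 genes past the limit were not among them. A row of class code j represented 5 members, among them Mrpl33, Mrpl41 and Mrps16, and this code in Cuffcompare output marks an isoform that shares only some junctions with the reference.

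Some members share a start region with another gene. For 25 of the 77 (32.5%), a coding gene on the other strand starts within 500 bases in GENCODE, as it does for 15.4% of 9659 coding genes compared. By their GENCODE starts, Mrpl46 and Mrps11 form such a pair with each other, at 412 bases with overlapping starts. Their listed models do not overlap, since that of Mrpl46 ends at 78783089 and that of Mrps11 starts at 78783131. Mrpl46 and Mrps11 were listed at 34.4 against 39.4 FPKM and 58.3 against 49.3 FPKM, with log2 ratios of -0.19 and 0.24. Another partner is Ndufs6, a subunit of respiratory complex I, whose GENCODE start overlaps that of Mrpl36. The listed model of Mrpl36 begins at 73331009, downstream of its GENCODE start at 73328513, so this model does not share that start. Ndufs6 had 258 against 298 FPKM, and Mrpl36 had 60.8 against 50.3 FPKM.

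In 21 pairs with both genes compared, 11 had ratios of the same sign and 10 of opposite sign. The pair with the largest gap was Mrps18b and Ppp1r10, a regulatory subunit gene of protein phosphatase 1, whose starts lie 45 bases apart. Ppp1r10 was listed at 3.96 against 0.538 FPKM, a log2 ratio of 1.69, where Mrps18b was at -1.16. Mrpl54 (-0.30) and Apba3 (22.03 against 11.4 FPKM, 0.89), with starts 26 bases apart, also differed by more than 1 on the log2 scale. Mrps12 (-0.04) lies opposite Sars2, the mitochondrial seryl-tRNA synthetase gene (3.77 against 8.62 FPKM, -1.01). Mrpl49 lies 59 bases from Fau, which had 9121 against 9205 FPKM, far above the 16.3 against 32.4 FPKM of Mrpl49. The counting is not stated to use strand, so reads from overlapping ends of such pairs cannot be told apart.

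**Figure D3:**
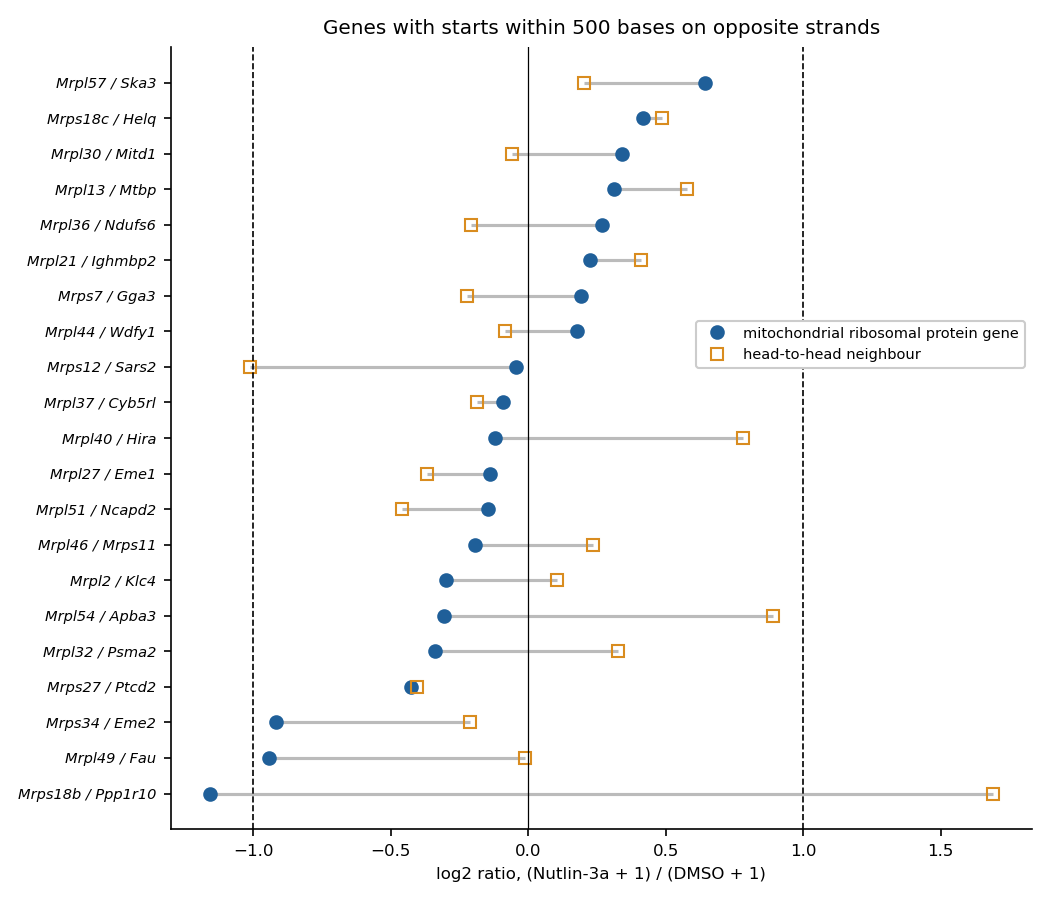
Log2 of (Nutlin-3a + 1) over (DMSO + 1) in FPKM for 21 mitochondrial ribosomal protein genes (filled circles) and their neighbours (open squares). Neighbours start within 500 bases on the other strand in GENCODE. Dashed lines mark 2-fold. Members and neighbours have the same sign in 11 pairs and opposite signs in 10, and the longest line joins Mrps18b with Ppp1r10.

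The same 3 motifs were counted in all promoters. Of the 68 members with an entry in the promoter table, 25 held the ETS core (36.8%), 12 the YY1 core (17.6%) and 8 the NRF1 core (11.8%). Among 7763 coding genes compared that had an entry, the shares were 22.1%, 6.40% and 6.62%. Over all 27025 genes of the promoter table they were 9.93%, 2.60% and 3.05%. At least 1 of the 3 was found in 35 members (51.5%) and in 31.7% of the coding genes compared. Mrpl22 held all 3 motifs. The NRF1 core was in 7 of 42 large-subunit and 1 of 26 small-subunit promoters, the latter being Mrps18b, and the ETS core in 14 and 11.

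The median log2 ratio was -0.04 in the 25 members with the ETS core and -0.09 in the 43 without it. With the YY1 core it was -0.07 in 12, the same to 2 decimals in the 56 without it. In the former no member passed the limit (-0.42 to 0.37), and 87.2% of all genes compared lay within it. For the NRF1 core the median was -0.16 in 8 and -0.07 in 60. A match is a stretch of letters and not evidence that the factor binds.

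Ratios in these data move with GC content, and the family was read with that in view. All 77 members had a GC content, with medians of 51.4% in the large and 50.4% in the small subunit and 51.1% over all genes. Over all genes compared the median log2 ratio ran from 0.25 in the class of lowest GC content to -0.21 in the class of highest. Across the members, Spearman's rho between ratio and GC content was -0.20, given as a description, since all genes come from the same 4 libraries. After each ratio was set against the median of genes of like GC content, the medians were -0.11 for the large and -0.10 for the small subunit.

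**Figure D4:**
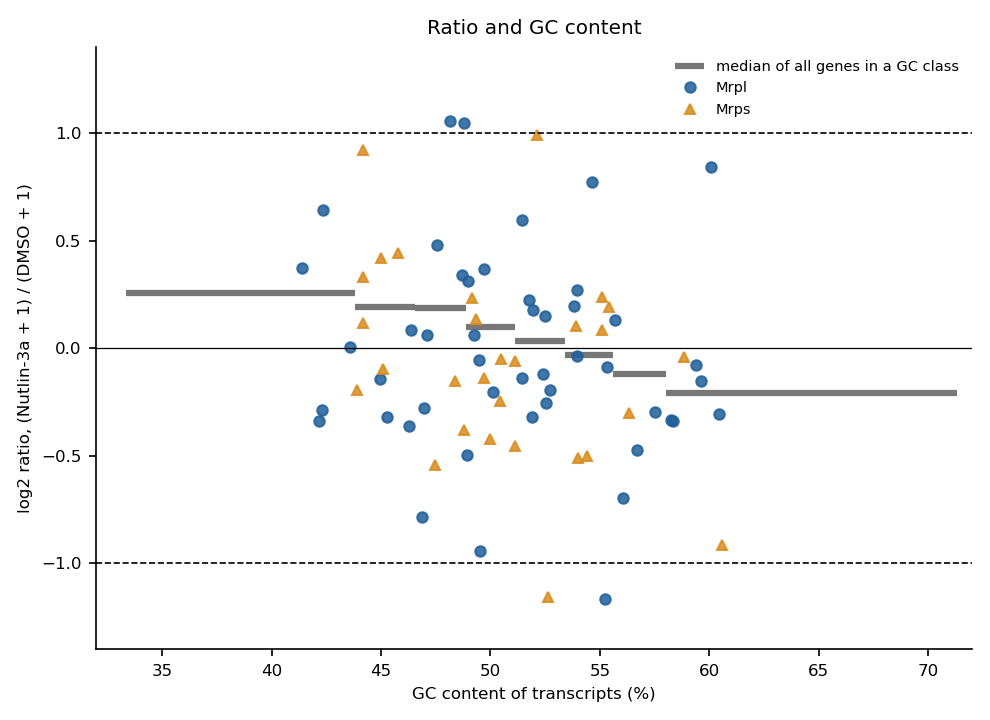
Log2 of (Nutlin-3a + 1) over (DMSO + 1) in FPKM against the GC content of the gene's transcripts for large-subunit (circles) and small-subunit (triangles) genes. Grey bars show the median ratio of all genes compared in 8 classes of nearly equal size by GC content, which runs from 0.25 to -0.21; dashed lines mark 2-fold.

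Other proteins of the mitochondrial ribosome are named outside the Mrpl and Mrps stems. Of 6 such genes, 1 was lower and none was higher, beside 6.14% and 6.62% of all genes, and the median log2 ratio was -0.28. Chchd1, a small-subunit protein, had 111 against 231 FPKM and was the one past the limit (-1.05). Gadd45gip1, a large-subunit protein known for binding GADD45 proteins, had 17.8 against 34.3 FPKM (-0.91), and Ict1, a peptidyl-tRNA hydrolase built into the large subunit, had 68.1 against 96.1 FPKM (-0.49). Dap3, the GTP-binding protein of the small subunit, had 24.5 against 25.6 FPKM, Aurkaip1 99.4 against 98.3 FPKM and the pentatricopeptide repeat protein Ptcd3 37.3 against 24.9 FPKM (0.57).

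Of 26 factors compared that assemble this ribosome or modify its RNA, 1 was lower and none higher, beside 6.14% and 6.62% of all genes. A ratio below 0 was found in 16 (61.5%), against 45.2% of all genes, and the median was -0.24 against 0.07. Rpusd4, a pseudouridine synthase, was the one past the limit (5.50 against 12.2 FPKM, -1.02), and its relative Rpusd3 lay just inside it (9.42 against 18.7 FPKM, -0.92). The GTPase Mtg1 (4.83 against 9.35 FPKM, -0.83), Mettl17 (6.56 against 12.4 FPKM, -0.83) and Mterf4, which acts with the methyltransferase Nsun4 (37.5 against 63.7 FPKM, -0.75), lay below DMSO. Mpv17l2 (167 against 95.6 FPKM, 0.80) and the GTPase Noa1 (14.3 against 9.48 FPKM, 0.54) lay above it.

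None of the 16 translation factors of mitochondria passed the limit on the log2(FPKM + 1) scale, and their median was -0.01. Of all genes compared, 6.62% were higher and 6.14% lower by this limit. As plain ratios, Gfm1 was 2.03-fold higher and Mtrf1 was listed at 0.374 times its DMSO value. Gfm1, the elongation factor G of mitochondria, was highest with 27.9 against 13.8 FPKM (0.97). The release factor Mtrf1 was lowest with 1.11 against 2.95 FPKM (-0.91), and the elongation factor Tufm had 49.3 against 55.2 FPKM (-0.16). None of the 7 genes of mitochondrial transcription passed the limit on that scale either, beside the same shares of all genes. The plain ratio of Tfb2m was 2.07-fold. Tfam, which packages mitochondrial DNA, was at 12.4 against 9.23 FPKM (0.39), Tfb2m at 9.05 against 4.38 FPKM (0.90) and Polrmt at 6.49 against 7.27 FPKM (-0.14).

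Of 8 regulators of nuclear genes for mitochondria compared, 2 were higher and none lower, beside 6.62% and 6.14% of all genes, and the group was not tested. Gabpb1, a subunit of the ETS factor GABP, had 33.1 against 11.1 FPKM and was 2.99-fold higher (1.498), and Esrra, the estrogen-related receptor alpha gene, had 17.8 against 7.06 FPKM and was 2.52-fold higher (1.22). Gabpa, which carries the DNA-binding domain of GABP, had 5.37 against 5.19 FPKM (0.04), Nrf1 6.75 against 5.40 FPKM (0.28), Yy1 28.6 against 22.8 FPKM (0.31) and Pprc1 6.13 against 9.88 FPKM (-0.61). The coactivator genes Ppargc1a and Ppargc1b were under the minimum mean.

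Values of related gene families are given for comparison. The 77 cytosolic ribosomal protein genes compared had a median log2 ratio of 0.06 with an SD across genes of 0.28, and 33 of 77 were below 0. Nuclear-encoded genes of oxidative phosphorylation had a median of 0.10 with an SD of 0.44 over 86 genes, of which 38 were below 0. For the 77 mitochondrial ribosomal protein genes the median was -0.08, the SD 0.47 and the number below 0 was 44. These values describe group values without replicates, and whether the families differ was not tested.

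**Figure D5:**
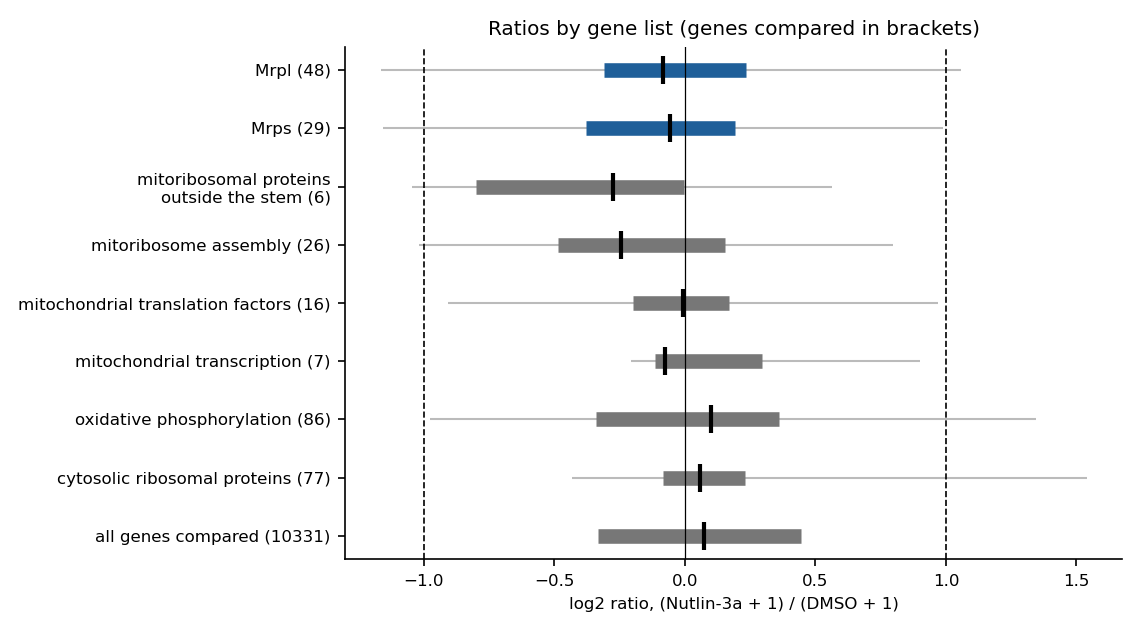
Log2 of (Nutlin-3a + 1) over (DMSO + 1) in FPKM by gene list, with the number of genes compared in brackets. Black ticks are medians, thick bars span the quartiles and thin lines the full range (not drawn for all genes); dashed lines mark 2-fold. Medians of the Mrpl and Mrps genes lie at -0.08 and -0.06, and those of oxidative phosphorylation and cytosolic ribosomal protein genes at 0.10 and 0.06.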

How the data were processed

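Total RNA of 3T3-L1 cells was taken with TRIzol and made into Illumina libraries, per the labels' protocols. Per the submitters' processing notes, TopHat2 2.0.11 was used with mm10. How replicates were combined, and with which quantifier, was not given in the sources used here. In unit FPKM, the deposited table holds values for 24746 transcripts, 1 per transcript and group, and 4294 blank lines. Per the file headers the groups are NUT and DSM, taken here for Nutlin-3a and for the only other group, DMSO. Listed starts count from 0 and are printed from 1.

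FPKM was summed per symbol and log2((Nutlin-3a + 1)/(DMSO + 1)) was taken, which understates ratios of weak genes. Folds are plain ratios. Genes with a mean of at least 1 FPKM and above 0 in both groups were compared (10331), and the limit was 2-fold on the log2(FPKM + 1) scale. The depth per library is unknown, so no interval is given. Members, gene lists, motifs and the rule for named genes were chosen with earlier results of these data known. Named were genes past 2-fold, the 5 highest, 5 lowest and 5 most abundant per subunit, paralogs, members with opposed transcripts and members of the structural lists; others were chosen after their values were seen. Mrpl29 and Mrpl31 of the lists, and Mrp63, listed as Mrpl57, matched no symbol. GC content and gene models came from GENCODE M21, promoters from RefSeq (GRCm38.p6). Ratio and call steps were tested on simulated data. Work was done in Python 3.11.15 with pandas 2.3.3.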

Additional observations from a re-analysis of the deposited data

How the results depend on the processing

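The medians of both subunits were below 0 under all settings tried, from -0.16 to -0.05 in the large and -0.13 to -0.05 in the small subunit. These settings were another or no pseudocount, 2 other filters on low values, upper-quartile, median and quantile scaling, a GC correction, the transcript with the highest mean, leaving out members overlapped by another symbol and, chosen after seeing the data, leaving out wide models and moving Mrps18a and Mrps30. The difference of the medians, large minus small, ran from -0.05 to 0.017 and was reversed after quantile normalization (0.017). The gap between the members' median and that of all genes ran from -0.16 to -0.07. The number of members higher by the limit was 2, and it was 1 after upper-quartile scaling, 0 with the median of all genes set to 0, 1 after the GC correction, 3 with a pseudocount of 0.1, with none or after quantile normalization, and 8 at a limit of 1.5-fold. Members lower by the limit numbered 2, or 3 with the median of all genes set to 0 or after the GC correction, and 6 at 1.5-fold. Within 1.5-fold lay 81.8% of the members and 67.0% of all genes compared. The lower limit itself admits more genes. Setting the median of all genes to 0 lowers each log2 ratio by 0.071, and Mrpl16 (1.05), Mrpl39 (1.06) and Mrpl49 (-0.94) lay near the limit. With a pseudocount of 0.1, Mrps23 moved from 0.99 to 1.01. The cause of the other changes was not tested.

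No paired analysis was possible because the table holds 1 value per group, and with no value per library no replicate was left out. Over all genes compared, the numbers higher and lower were 684 and 634 of 10331. They were 998 and 845 with a pseudocount of 0.1, 1039 and 883 with no pseudocount, and 1839 and 1566 at 1.5-fold. At a mean of at least 5 FPKM they were 391 and 466 of 6888, and after the GC correction 612 and 592 of 9935. Lower genes outnumbered higher ones after upper-quartile scaling (629 and 688), with the median set to 0 (596 and 729) and after quantile normalization (631 and 714), as they did at the mean of at least 5 FPKM.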
